A study of Mus musculus with 14 samples.

Results

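Accessible chromatin was measured at the loci of 53 developmental transcription factor genes that are known for work outside the blood system, in blood stem cells and progenitors with and without a Dnmt3a mutation. The 53 genes fall into 31 factors of neural patterning and neuron identity, 12 of heart and other mesoderm, 2 of endoderm and 8 of skeletal, craniofacial and limb development. A region belonged to these loci when it overlapped the RefSeq bounds of 1 of the genes extended by 10 kb on each side and had a mean deposited value of at least 30 over the 14 libraries. Of 705361 regions in the deposited table (build mm10), 1119 lay in these windows and 405 had a mean of at least 30. Those 405 are called developmental factor regions below, and the other 714 were not tested. The member regions nearest to the limit had means of 29.7 below it and 30 at it. Every gene kept at least 2 tested regions (2 at Gata6, 19 at Tbx2), and 15 regions counted for a pair of neighbouring genes (Dlx1 and Dlx2, Dlx5 and Dlx6, Zic1 and Zic4).

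The proteins of these genes bind DNA and switch on programmes of neural tube, heart, gut, limb or face formation in the embryo. In blood cells most such genes are silent, and their CpG-rich start regions are usually held by Polycomb complexes and kept free of DNA methylation within wide unmethylated stretches. Dnmt3a is a de novo DNA methyltransferase that writes methylation at the edges of such stretches in blood stem cells. The R878H allele is the mouse counterpart of the commonest DNMT3A mutation of human clonal haematopoiesis and acute myeloid leukaemia. Neither methylation nor RNA was measured here, so the values below are accessibility alone.

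The assay was ATAC-seq, in which a transposase cuts open chromatin and leaves sequencing adapters. Long-term haematopoietic stem cells (LT-HSC) and MPP3 cells, a myeloid-biased multipotent progenitor, were sorted from bone marrow of lethally irradiated CD45.1 mice that had been given 1000000 marrow cells of C57BL/6J strain donors. Donors of the WT group carried Mx-Cre and neither mutant allele. The Dnmt3a group had Dnmt3a-flR878H/+ marrow, the Npm1 group had Npm1-frt/+ marrow (Npm1c in the sample names), and the Dnmt3a;Npm1 group had both alleles. All recipients, those of WT marrow included, had poly(I:C) 4 weeks after transplant, tamoxifen 4 weeks later, and harvest 4 weeks after that. Mx-Cre responds to interferon and is not restricted to stem cells, and irradiated hosts can keep some blood cells of their own. In each cell type 3 libraries carried the Dnmt3a mutation and 4 did not. The LT-HSC carriers were 1 Dnmt3a and 2 Dnmt3a;Npm1 libraries, and the MPP3 carriers were 2 Dnmt3a and 1 Dnmt3a;Npm1 library. Non-carriers were 2 WT and 2 Npm1 libraries in each cell type. Replicates carry letters only, and nothing in the labels says that they came from separate mice, so a p-value here stands against differences between libraries whose origin, animal or technical, is not known. In sorted cell pools, a locus open in fewer cells and a locus less open in each cell cannot be told apart.

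The description of these loci as CpG-rich was checked on promoter sequence alone. CpG content of the tested regions themselves was not counted. RefSeq promoter windows (build GRCm38.p6, 300 bases around the start) were at hand for 34 of the 53 genes. They held a median of 25 CpG (range 8 to 40), against 7 over all 27025 genes with a window. The observed-to-expected CpG ratio was at least 0.6 in 31 of the 34 (91.2%), against 35.5% of all genes. A median of 18.5 CpG was counted at 66 other developmental factor genes, 20.75 at 26 blood transcription factor genes and 21.5 at 18 housekeeping genes, so a CpG-rich promoter was not particular to the member genes.

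The 250 bases upstream of the start are shown for 6 genes whose regions stand in the carrier comparisons below, to let the CpG density be seen. Letters are 5′ to 3′ on the gene's strand, and every CpG is in capitals. Both letters of the motif CG read the same on the other strand, and 92.1% of all promoter sequences of this length hold at least 1. Per sequence there are 22 CpG for Olig2 (chr16:91225300-91225549, plus strand), 15 for Hand2 (chr8:57320733-57320982, plus), 25 for Pax2 (chr19:44756656-44756905, plus), 29 for Foxc1 (chr13:31806396-31806645, plus), 33 for Isl1 (chr13:116309689-116309938, minus) and 14 for Lhx6 (chr2:36105409-36105658, minus). The median over all genes was 6 in this stretch, and 19.5 over the member genes.
Olig2: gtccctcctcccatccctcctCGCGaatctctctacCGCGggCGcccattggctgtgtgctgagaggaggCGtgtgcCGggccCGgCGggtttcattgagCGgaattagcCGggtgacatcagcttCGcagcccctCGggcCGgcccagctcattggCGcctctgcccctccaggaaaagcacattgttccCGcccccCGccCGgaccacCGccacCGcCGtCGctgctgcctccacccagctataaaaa
Hand2: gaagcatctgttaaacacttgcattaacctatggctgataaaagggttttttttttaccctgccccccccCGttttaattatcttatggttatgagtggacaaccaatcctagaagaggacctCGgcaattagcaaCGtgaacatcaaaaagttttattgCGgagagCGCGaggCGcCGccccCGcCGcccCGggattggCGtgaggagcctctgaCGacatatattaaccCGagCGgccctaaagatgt
Pax2: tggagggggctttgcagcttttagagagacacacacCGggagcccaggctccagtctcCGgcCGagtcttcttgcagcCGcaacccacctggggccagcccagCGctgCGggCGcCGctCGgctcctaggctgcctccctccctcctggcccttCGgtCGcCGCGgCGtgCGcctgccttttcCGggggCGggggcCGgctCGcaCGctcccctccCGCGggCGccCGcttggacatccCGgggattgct
Foxc1: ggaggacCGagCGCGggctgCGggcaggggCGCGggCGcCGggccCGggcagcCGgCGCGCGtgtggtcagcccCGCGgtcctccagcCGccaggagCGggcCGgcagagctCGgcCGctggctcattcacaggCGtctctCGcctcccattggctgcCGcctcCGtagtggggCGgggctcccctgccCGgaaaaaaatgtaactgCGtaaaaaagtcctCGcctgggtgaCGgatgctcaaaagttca
Isl1: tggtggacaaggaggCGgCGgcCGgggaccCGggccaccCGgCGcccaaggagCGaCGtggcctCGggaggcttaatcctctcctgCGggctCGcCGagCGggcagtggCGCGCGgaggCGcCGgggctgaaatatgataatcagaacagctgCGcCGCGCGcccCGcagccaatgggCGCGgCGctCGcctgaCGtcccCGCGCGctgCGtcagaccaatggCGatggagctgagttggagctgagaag
Lhx6: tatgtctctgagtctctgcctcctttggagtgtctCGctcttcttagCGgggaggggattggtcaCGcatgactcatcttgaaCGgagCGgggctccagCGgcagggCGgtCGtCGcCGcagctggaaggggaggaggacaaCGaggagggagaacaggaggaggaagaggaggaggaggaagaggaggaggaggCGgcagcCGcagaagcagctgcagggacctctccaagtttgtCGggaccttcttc
Foxc1 and Isl1 carry CpG along most of the stretch, while in Hand2 they crowd towards the start. Each of the 6 stretches overlapped a tested open region, with mean deposited values of 63.9 at Olig2, 158 at Hand2, 185 at Pax2, 379 at Foxc1, 128 at Isl1 and 144 at Lhx6.

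Most developmental factor regions were weak. Their median of the deposited mean was 50.8, against 45.7 over all 134465 tested regions, and per kb of region 77.3 against 74.1. Of the 405, 34 covered an annotated start of their own gene (known for the genes with a promoter window). Another 169 overlapped the bounds of a member gene and 202 lay in the flanks. The 34 start regions had a median mean of 151 and a median width of 1616.5 bp. Regions with a mean of at least 100 numbered 77, with 101 per kb against 142 per kb for all regions that strong. By role, the median mean was 48.2 for the neural regions, 53.7 for heart and mesoderm, 47.6 for skeletal, craniofacial and limb, and 89.4 for the 10 regions of Sox17 and Foxa2, the endoderm pair.

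The strongest of the 405 regions (mean 418) lay beside Irx5, an Iroquois factor of heart and neural patterning, at chr8:92355444-92356749. This region was 1047 bp outside the gene bounds and overlapped the neighbouring long non-coding RNA gene Crnde. It was followed by the start regions of Lhx2, a forebrain and eye factor (chr2:38349708-38353957, mean 396), Foxc1, an eye, vessel and skull factor (chr13:31805648-31808955, mean 379) and Tlx3, a sensory neuron factor (chr11:33200837-33205021, mean 357). The Tlx3 gene lies 36610 bp from Npm1, a broadly used gene and the target of the other allele. After normalization the Lhx2 start region read 226 and 431 in WT, 619 and 663 in Npm1, 374 in Dnmt3a, and 417 and 538 in Dnmt3a;Npm1 LT-HSC. In MPP3 it read 389.7 and 201 in WT, 275 and 179 in Npm1, 434 and 678 in Dnmt3a, and 323 in Dnmt3a;Npm1. Its 2 WT LT-HSC replicates lay on either side of the Dnmt3a value and of 1 Dnmt3a;Npm1 value, and the 2 WT MPP3 replicates lay almost as far apart. The fitted carrier difference (model below) was 0.39 ± 0.30 (SE) in LT-HSC and 0.32 ± 0.29 in MPP3.

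Libraries differed in enrichment, taken here as the share of a library's total signal that lies in the 25129 regions of mean at least 100. Among LT-HSC libraries WT stood at 44.8% and 30.05%, Npm1 at 19.5% and 15.7%, Dnmt3a at 38.2%, and Dnmt3a;Npm1 at 31.3% and 30.7%. Among MPP3 libraries WT stood at 29.8% and 51.6%, Npm1 at 32.6% and 44.7%, Dnmt3a at 22.3% and 26.6%, and Dnmt3a;Npm1 at 35.8%. Carriers and non-carriers overlapped in both cell types, but 2 of 3 MPP3 carriers were below every MPP3 non-carrier, and the 2 Npm1 LT-HSC libraries were below all other libraries. Total signal was 14683769 to 28748205 per library. Replicates of a group correlated at 0.43 to 0.82 (Pearson's r) over the developmental factor regions, a description across regions, and no pair of replicates held identical values.

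The level of the developmental factor regions followed enrichment closely. After scaling to strong regions (trimmed mean of M values, TMM, over the regions of mean at least 100), their median was 114 and 103 in the 2 Npm1 LT-HSC libraries of lowest enrichment and 23.1 in the MPP3 WT library of highest enrichment. The remaining LT-HSC medians were 38.9 and 54.6 in WT, 40.5 in Dnmt3a, and 58.5 and 65.0 in Dnmt3a;Npm1. For MPP3 the median was 53.8 in the other WT library, 37.9 and 24.2 in Npm1, 74.8 and 56.1 in Dnmt3a, and 41.8 in Dnmt3a;Npm1. All tested regions went along, from 100.1 in an Npm1 LT-HSC library to 24.4 in the same MPP3 WT library. The strong regions both define enrichment and set this scaling, so such a fall in weaker regions is in part built in.

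The slope on enrichment, from the model described next, was a median of -0.96 log2 units per doubling of enrichment over the 405 regions and was negative in 354 of them (87.4%). Over all tested regions it was -0.83 and negative in 79.3%. The gap between them was wider among strong regions, as a description with no test. With a mean of at least 100, the developmental factor regions had a median slope of -0.59, negative in 66 of 77, while all regions that strong had a median slope of 0.014, negative in 49.0%. Weak regions of mean 30 to 100 had the same median slope in both, -1.07. Other developmental factor loci, from a separate list of 89 genes with 598 tested regions, had a median slope of -0.99, blood transcription factor loci -0.61 and housekeeping loci -0.17. On the scale of total signal, which strong regions set only in part, the member median was far more even. It was 2.41 to 3.02 per 1000000 in LT-HSC and 1.66 to 2.51 per 1000000 in MPP3. Lowest in MPP3 were Npm1 replicate B (1.66) and WT replicate B (1.84), the most enriched MPP3 libraries at 44.7% and 51.6%.

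**Figure D1:**
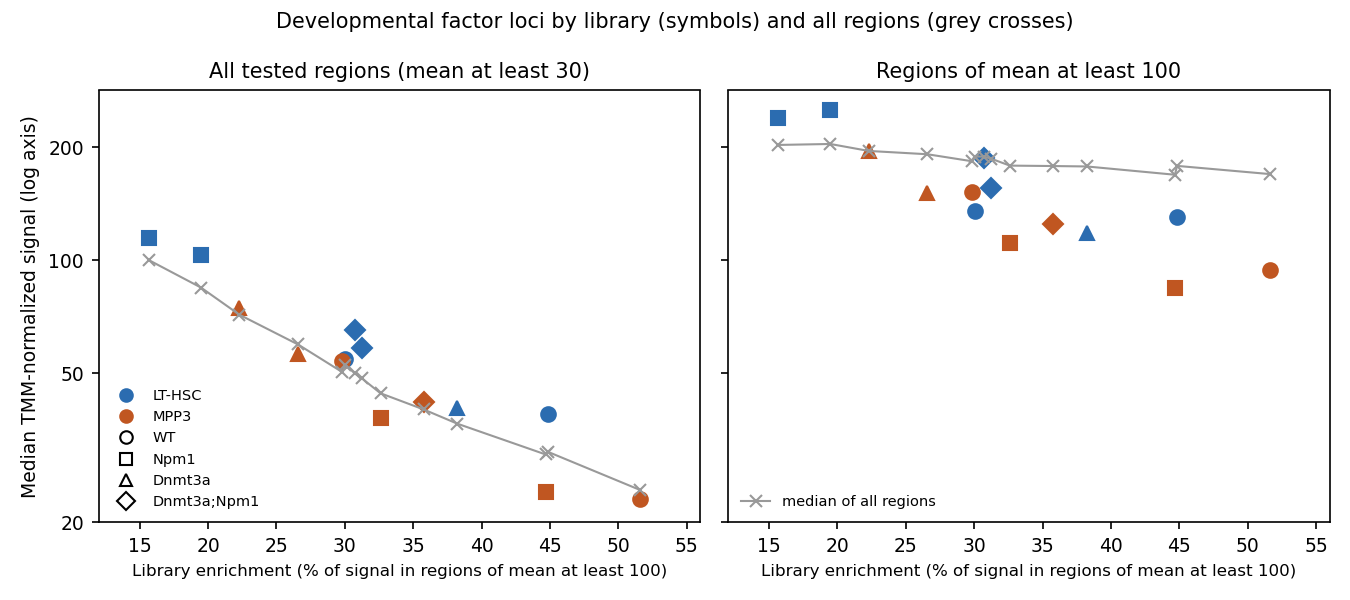
Median TMM-normalized signal (y, log axis) against library enrichment in % (x) for each of the 14 libraries, over all tested regions (left) and regions of mean at least 100 (right); symbols are the developmental factor regions by cell type and genotype, grey crosses all regions of that class. On the left both fall with enrichment, from 114 and 100.1 in the least enriched Npm1 LT-HSC library to 23.1 and 24.4 in the most enriched MPP3 WT library; on the right the developmental factor regions run from 252 to 84.2 while all strong regions stay between 169 and 204.

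Whether Dnmt3a-mutation carriers differed from the other libraries was tested with limma on log2(normalized value + 4), over all 134465 tested regions, with the 8 groups and the centred log2 enrichment in the model. A region counted as called at a Benjamini-Hochberg adjusted p under 0.05 over all tested regions. Differences below are log2, with limma's standard error (SE), and those of weak regions are understated by the added 4.

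In LT-HSC, no developmental factor region was called between the 3 carriers and the 4 non-carriers (0 of 405, with 0% of all tested regions called). At an unadjusted p under 0.05, 8 of 405 were higher and 2 lower in carriers, against 1.38% and 1.35% of all tested regions. The median difference was -0.02, with 195 of 405 above 0, and -0.01 over all tested regions. The 95% interval of a typical region reached 1.43 to either side (median), so smaller differences could not be resolved there. By role the median was -0.02 for neural, -0.09 for heart and mesoderm, -0.04 for skeletal, craniofacial and limb, and 0.26 for the 10 endoderm regions, of which 8 were above 0 and none reached an unadjusted p under 0.05.

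In MPP3, again 0 of 405 regions were called (0% of all tested regions). At an unadjusted p under 0.05, 4 were higher and 2 lower in carriers, against 0.823% and 1.62% of all tested regions. The median difference was 0.05, with 222 of 405 above 0, and -0.06 over all tested regions, and intervals reached 1.38 to either side (median). Neural regions had a median of 0.06, heart and mesoderm 0.15, skeletal, craniofacial and limb -0.11, and endoderm -0.21, with 2 of 10 above 0. Without the MPP3 WT library of lower enrichment (replicate A), the member median was 0.22, against -0.03 over all regions.

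The difference between the cell types in the carrier effect was tested by itself and called at 0 of 405 regions (0% of all tested regions). At an unadjusted p under 0.05, 1 was higher and 3 were lower, against 0.84% and 1.36%. Its median was 0.13, against -0.05 over all tested regions, with intervals reaching 2.26 to either side (median). Without WT LT-HSC replicate A the median was -0.10 (-0.09 over all regions), and without MPP3 WT replicate A it was 0.39.

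Leaving the enrichment out of the model moved these medians more than any other single choice tried. Without it the member median was -0.41 in LT-HSC carriers (77 of 405 above 0) and 0.42 in MPP3 carriers (322 of 405 above 0), with a difference of 0.87 (358 of 405 above 0). All tested regions moved the same way, with medians of -0.37, 0.24 and 0.62. At an unadjusted p under 0.05 there were then 35 member regions in LT-HSC (8.81% of all regions), 30 in MPP3 (3.8%) and 63 for the difference (10.9%). Still 0 of 405 were called, with 0.000744% of all tested regions called in LT-HSC and 0% in the other comparisons. Relative to the median of all regions, the members stood at -0.04 in LT-HSC and 0.18 in MPP3 without enrichment, and at -0.01 and 0.12 with it. Scaling to total signal with no enrichment term, chosen after seeing the data, gave member medians of 0.035 in LT-HSC and 0.06 in MPP3, against 0.07 and -0.12 over all regions.

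The same contrast could be split by Npm1 state, with 1 or 2 libraries a group. With enrichment in the model the member median in LT-HSC was -0.06 for Dnmt3a against WT (0.05 over all tested regions) and -0.02 for Dnmt3a;Npm1 against Npm1 (-0.06 over all). In MPP3 it was -0.05 for Dnmt3a against WT (-0.11 over all) and 0.22 for Dnmt3a;Npm1 against Npm1 (0.00 over all), with 261 of 405 regions above 0 in the last. That last median rests on the lone Dnmt3a;Npm1 MPP3 library, which had to be kept in every run, so leaving out libraries cannot test that dependence. It stood 0.17 to 0.30 above the median of all regions under the 16 settings that kept all libraries. With 1 of the other libraries left out it stood 0.20 to 0.25 above. None of the 405 regions was called in any of these (0% of all tested regions in each). Unadjusted p fell under 0.05 at 5 member regions (2.48% of all tested) and 9 (4.35%) in LT-HSC, and at 16 (4.26%) and 3 (0.745%) in MPP3, in the same order. Without enrichment the medians were -0.10, -0.75, 0.58 and 0.32 in that order, against 0.01, -0.79, 0.45 and 0.06 over all regions. Unadjusted p was then under 0.05 at 5 (1.67% of all tested), 73 (20.2%), 49 (9.93%) and 2 (0.38%) member regions. None of them was called, while 0.252% of all tested regions were called for Dnmt3a;Npm1 against Npm1 in LT-HSC and 0% in the other 3. Lone libraries in the Dnmt3a LT-HSC and Dnmt3a;Npm1 MPP3 groups were assumed to vary like the rest.

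Npm1-allele carriers were set against the other libraries in the same way. With enrichment the member median was 0.15 in LT-HSC (-0.02 over all regions), with 15 regions higher and 3 lower at an unadjusted p under 0.05 (2.06% and 1.27% of all tested). In MPP3 it was -0.08 (0.06 over all regions), with 5 higher and 5 lower (1.01% and 0.498%). None of the 405 was called in either (0% of all tested). Without enrichment the medians were 0.75 and -0.31, against 0.58 and -0.12 over all regions. Both Npm1 LT-HSC libraries are the ones of lowest enrichment.

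**Figure D2:**
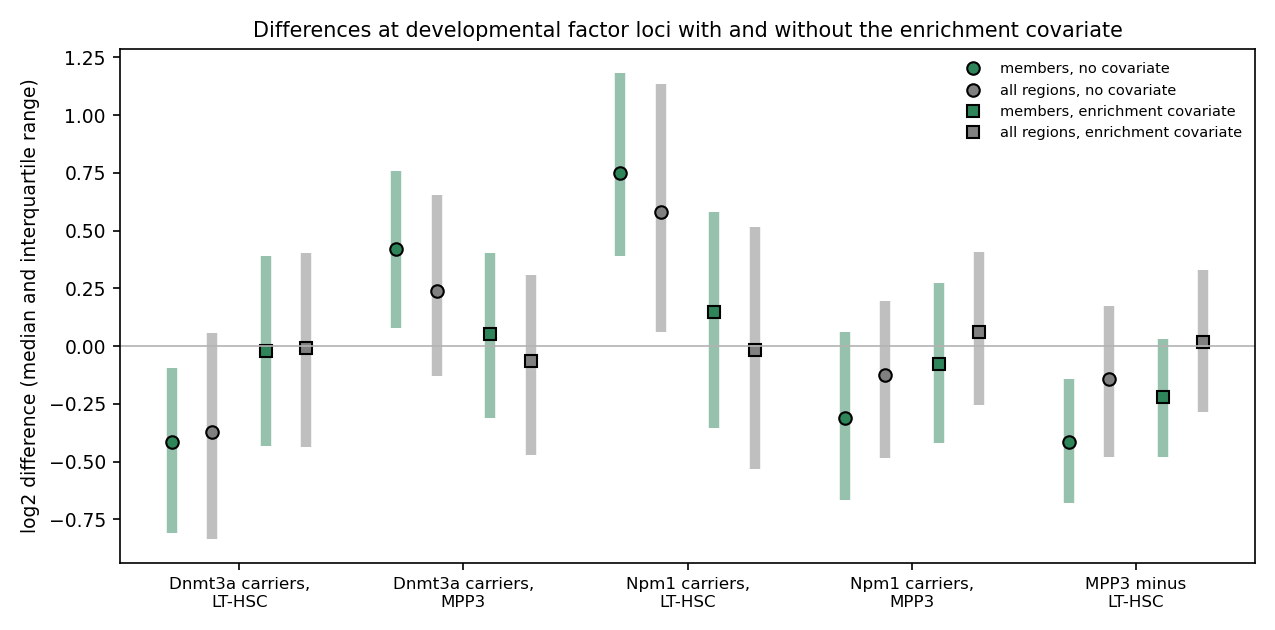
Median (symbol) and interquartile range (bar) of the log2 difference over the 405 developmental factor regions (green) and all 134465 tested regions (grey), without enrichment (circles) and with it (squares), for the carrier comparisons of each allele and for the cell types. Without enrichment the carrier medians are -0.41 in LT-HSC and 0.42 in MPP3 and the grey ones move along; with it both lie near 0. MPP3 minus LT-HSC is -0.42 without enrichment and -0.22 with it.

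Carriers and non-carriers seldom separated in the normalized values. In LT-HSC all 3 carriers lay above all 4 non-carriers at 0 of 405 regions (0.814% of all tested regions) and below them at 19 (4.69%, against 3.93%). In MPP3 they lay above at 38 (9.38%, against 7.6%) and below at 5 (1.23%, against 2.15%). After the fitted enrichment term was subtracted, the counts were 14 above and 12 below in LT-HSC (3.41% and 3.06% of all tested) and 31 above and 15 below in MPP3 (6.07% and 7.6%).

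The regions of smallest p are given next with their values in every library of the cell type in which they were listed. Values or ranges of the other cell type are added only for the Olig2 and Pax2 regions. None passed the threshold: limma's adjusted p was 0.9999 for each named LT-HSC region and 1 for each named MPP3 region, also where the unadjusted p was small.

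Olig2, a factor of motor neurons and oligodendrocytes, had 2 named regions. Both lay downstream of the CpG-dense start shown above and overlapped the lncRNA gene Gm52261. The one at chr16:91229997-91230720, 4447 bp from the start, read 5.06 and 66.2 in WT, 61.9 and 140.1 in Npm1, 57.3 in Dnmt3a, and 32.3 and 40.8 in Dnmt3a;Npm1 LT-HSC. In MPP3 it read 92.5 and 16.5 in WT, 51.5 and 14.9 in Npm1, 82.7 and 2.34 in Dnmt3a, and 41.8 in Dnmt3a;Npm1. Carriers and non-carriers overlapped in both cell types, and the lowest values of either cell type, 5.06 and 2.34, each had a replicate among the higher ones. The fitted carrier difference was 1.83 ± 0.79 (SE) in LT-HSC and -1.83 ± 0.76 in MPP3, and 0.00 and -0.21 without enrichment.

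The second Olig2 region, chr16:91232521-91233171, read 50.6 and 44.8 in WT, 165.0 and 94.4 in Npm1, 20.6 in Dnmt3a, and 21.2 and 1.67 in Dnmt3a;Npm1 LT-HSC. All 3 carriers were lower than all 4 non-carriers there. The fitted difference was -1.78 ± 0.87 (SE), and -2.25 without enrichment. In MPP3 the values overlapped, from 2.34 to 31.3 in carriers and from 20.5 to 55.7 in non-carriers.

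Pax2, a kidney, eye and midbrain-hindbrain factor, has several annotated starts. Its region at an upstream start, chr19:44746601-44747177, read 25.8 and 52.6 in WT, 198 and 114 in Npm1, 11.5 in Dnmt3a, and 19.2 and 14.99 in Dnmt3a;Npm1 LT-HSC. Carriers lay below all non-carriers, at 15.2 ± 3.86 (SD, n = 3) against 97.7 ± 76.5 (SD, n = 4), and among the non-carriers both Npm1 libraries were above both WT libraries. This gave a fitted difference of -1.76 ± 0.70 (SE) with enrichment and -2.15 without. In MPP3 the same region read 29.3 and 14.4 in WT, 21.04 and 17.96 in Npm1, 79.5 and 56.1 in Dnmt3a and 18.3 in Dnmt3a;Npm1, with overlap between carriers and non-carriers.

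A second Pax2 region, in the gene body at chr19:44760718-44761146, was among the MPP3 regions. It read 5.85 and 7.84 in WT, 11.6 and 4.95 in Npm1, 79.5 and 53.8 in Dnmt3a, and 15.7 in Dnmt3a;Npm1 MPP3. All 3 carriers were above all 4 non-carriers, at 49.7 ± 32.1 (SD, n = 3) against 7.55 ± 2.94 (SD, n = 4). Its fitted difference was 1.93 ± 0.86 (SE) with enrichment and 1.71 without. In LT-HSC the values overlapped, from 12.2 to 104 in carriers and from 8.77 to 103 in non-carriers.

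Foxc1 was low in LT-HSC carriers at a region 3867 bp from its start, chr13:31810513-31812191. It read 165 and 206 in WT, 464 and 266 in Npm1, 99.2 in Dnmt3a, and 184 and 117 in Dnmt3a;Npm1. A carrier lay above a WT library, so the groups overlapped, and the fitted difference was -0.89 ± 0.42 (SE). The much stronger start region of Foxc1, over the promoter printed above, read 329.7 and 349.7 in WT, 464 and 520.4 in Npm1, 328 in Dnmt3a, and 322 and 252 in Dnmt3a;Npm1 LT-HSC, with a fitted difference of -0.09 ± 0.28. Its carriers lay below all non-carriers by a margin of about 2 units between a WT and the Dnmt3a library.

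Dlx5, a homeobox factor of bone and branchial arches, read 60.7 and 27.3 in WT, 208 and 109 in Npm1, 32.8 in Dnmt3a, and 80.6 and 10.8 in Dnmt3a;Npm1 LT-HSC at chr6:6883003-6883940. The groups overlapped, and the fit gave -1.59 ± 0.78 (SE). At all of these LT-HSC regions with lower carriers the highest value was in an Npm1 library.

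Among the LT-HSC regions with higher fitted values in carriers was Hand1, a heart and placenta factor (chr11:57831102-57832326, across an end of the gene bounds and overlapping the lncRNA gene Gm32915). It read 27.3 and 129.6 in WT, 90.8 and 154 in Npm1, 105 in Dnmt3a, and 131 and 63.3 in Dnmt3a;Npm1. Carrier and non-carrier means were 99.6 ± 34.1 (SD, n = 3) and 100.5 ± 55.4 (SD, n = 4), and the fitted difference was 1.295 ± 0.54 (SE) with enrichment and 0.19 without it.

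Hand2, its relative in heart and limb, read 24.8 and 30.2 in WT, 80.4 and 82.9 in Npm1, 49.6 in Dnmt3a, and 98.8 and 155 in Dnmt3a;Npm1 LT-HSC at chr8:57333027-57334105. This region lies 12044 bp from the Hand2 start. Its fitted difference was 1.45 ± 0.66 (SE) with enrichment and 0.68 without, and the groups overlapped. The Hand2 start region, chr8:57320835-57322785, read 69.8 and 65.3 in WT, 332 and 346 in Npm1, 81.7 in Dnmt3a, and 146 and 261 in Dnmt3a;Npm1 LT-HSC. Both Npm1 libraries were above every carrier there, and the fitted carrier difference was 0.16 ± 0.41.

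Wt1, a kidney, gonad and mesothelium factor that is also used as a marker in leukaemia, had a region in each list. In LT-HSC, chr2:105181509-105183005 read 21.7 and 99.4 in WT, 94.9 and 169 in Npm1, 38.2 in Dnmt3a, and 96.8 and 204 in Dnmt3a;Npm1. Its fitted difference was 1.19 ± 0.54 (SE) but -0.07 without enrichment. In MPP3, chr2:105127692-105128292 in the gene body read 17.6 and 27.9 in WT, 38.9 and 27.2 in Npm1, 113 and 100.5 in Dnmt3a, and 43.5 in Dnmt3a;Npm1. All 3 carriers were above all 4 non-carriers there, with a fitted difference of 1.32 ± 0.59 and 1.23 without enrichment.

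Tbx3, a limb, heart and breast factor, read 33.9 and 35.7 in WT, 16.8 and 15.5 in Npm1, 129 and 91.2 in Dnmt3a, and 43.5 in Dnmt3a;Npm1 MPP3 at chr5:119682634-119683035. Sox17, an endoderm and fetal blood stem cell factor, read 40.96 and 52.7 in WT, 53.6 and 47.7 in Npm1, 154 and 66.6 in Dnmt3a, and 93.1 in Dnmt3a;Npm1 MPP3 at chr1:4493068-4493773. In both, the carriers lay above all non-carriers. The fitted differences were 1.66 ± 0.76 (SE) at Tbx3 and 1.12 ± 0.53 (SE) at Sox17. All 4 of these MPP3 regions, at Wt1, Pax2, Tbx3 and Sox17, lay in a gene body, and at each the Dnmt3a;Npm1 library was below at least 1 of the Dnmt3a libraries.

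Isl1, a factor of motor neurons and heart progenitors, gave the smallest unadjusted p of the carrier comparisons (0.00118 in MPP3, limma's adjusted p = 1). The region chr13:116293474-116294381, 15307 bp from the start, read 93.6 and 19.2 in WT, 49.4 and 29.7 in Npm1, 4.77 and 2.34 in Dnmt3a, and 33.1 in Dnmt3a;Npm1 MPP3. Both Dnmt3a libraries were lower than all other libraries of the study, and the Dnmt3a;Npm1 library lay among the non-carriers. The fitted difference was -2.39 ± 0.64 (SE), and -1.43 without enrichment. At the CpG-dense Isl1 start region, chr13:116309309-116310359, the Dnmt3a MPP3 libraries were not low. They read 329 and 147, against 193 and 94.0 in WT, 74.7 and 80.5 in Npm1, and the Dnmt3a;Npm1 library read 87.9. The fitted difference there was 0.20 ± 0.46.

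Pitx1, a hindlimb factor, read 184 and 81.4 in WT, 102 and 88.6 in Npm1, 54.1 and 73.7 in Dnmt3a, and 73.1 in Dnmt3a;Npm1 MPP3 at chr13:55830552-55831898. All 3 carriers were below all 4 non-carriers, with a fitted difference of -0.98 ± 0.47 (SE). Lhx6, a factor of cortical interneurons, read 184 and 91.0 in WT, 133 and 61.9 in Npm1, 121 and 106 in Dnmt3a, and 84.4 in Dnmt3a;Npm1 MPP3 over its printed promoter (chr2:36104611-36106011). The groups overlapped, and the fitted -0.77 ± 0.39 (SE) was -0.14 without enrichment.

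**Figure D3:**
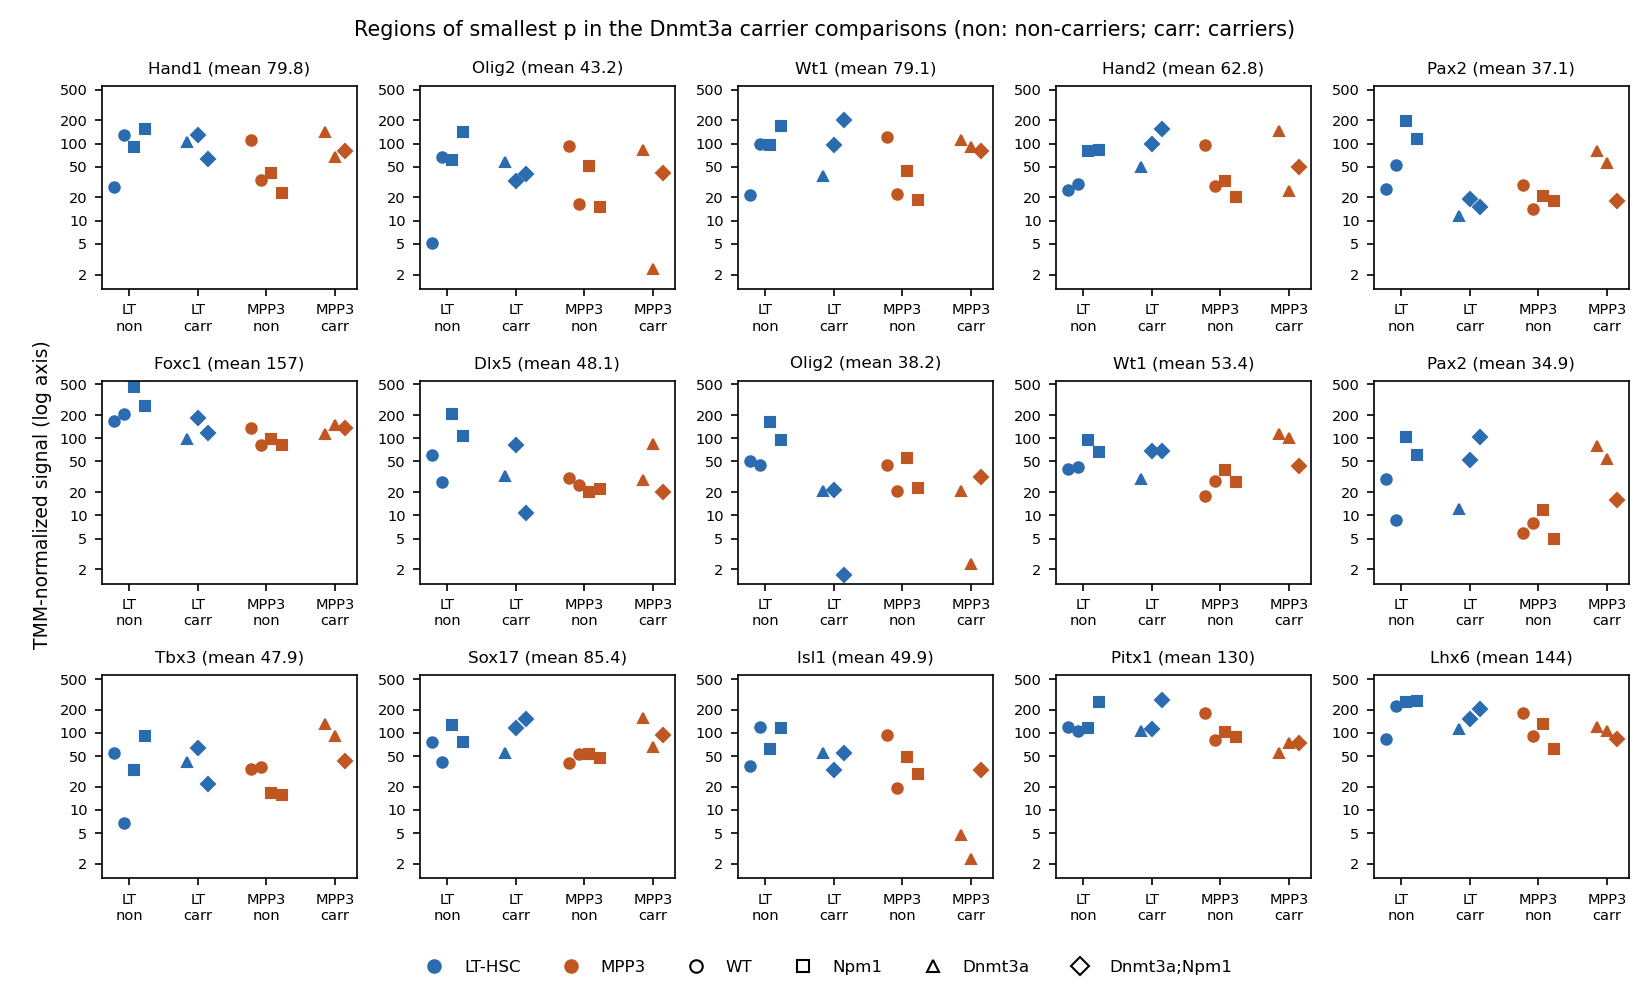
TMM-normalized signal (y, log axis) of each library at the 15 distinct regions of smallest p in the carrier comparisons, by cell type and Dnmt3a carrier status (x), with genotype by symbol. Carriers separate from non-carriers in 7 of the 15 panels, 2 in LT-HSC (such as Pax2, 15.2 against 97.7 on average) and 5 in MPP3. The Npm1 LT-HSC libraries are often highest. Panels were picked by smallest p in these same comparisons, so the separation in them is no separate support. Over all tested regions carriers lay above all non-carriers at 0.814% and below at 3.93% in LT-HSC, and at 7.6% and 2.15% in MPP3.

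The clearest contrast at these loci ran between the cell types, in the direction of a lower level in MPP3. With enrichment in the model the median difference of MPP3 from LT-HSC was -0.22 over the developmental factor regions, with 109 of 405 above 0, against 0.02 over all tested regions. None of the 405 was called by limma, where 2 of 134465 (0.00149%) were called in all. At an unadjusted p under 0.05, 2 member regions were higher in MPP3 and 24 lower, against 3.93% and 2.66% of all tested regions, which for the lower side is 24 of 405 (5.93%). Without enrichment the median was -0.42, against -0.14 over all regions, and 54 member regions had an unadjusted p under 0.05 (8.43% of all tested), none called (0.0238%). Relative to all regions the members stood at -0.24 with enrichment and -0.27 without. Without WT LT-HSC replicate A the member median was -0.13, and without MPP3 WT replicate A it was -0.33. A single region's 95% interval reached 0.90 to either side (median), more than the shift.

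In each library by itself, the member median stood above that of all tested regions by 0.05 to 0.35 (log2) in the 7 LT-HSC libraries. In MPP3 it ranged from -0.29 to 0.09. The LT-HSC values were 0.30 and 0.05 in WT, 0.27 and 0.19 in Npm1, 0.13 in Dnmt3a, and 0.25 and 0.35 in Dnmt3a;Npm1. The MPP3 values were 0.09 and -0.07 in WT, -0.20 and -0.29 in Npm1, 0.06 and -0.08 in Dnmt3a, and 0.06 in Dnmt3a;Npm1. The 2 cell types overlapped through 1 WT LT-HSC library, and carriers overlapped the non-carriers in both cell types.

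**Figure D4:**
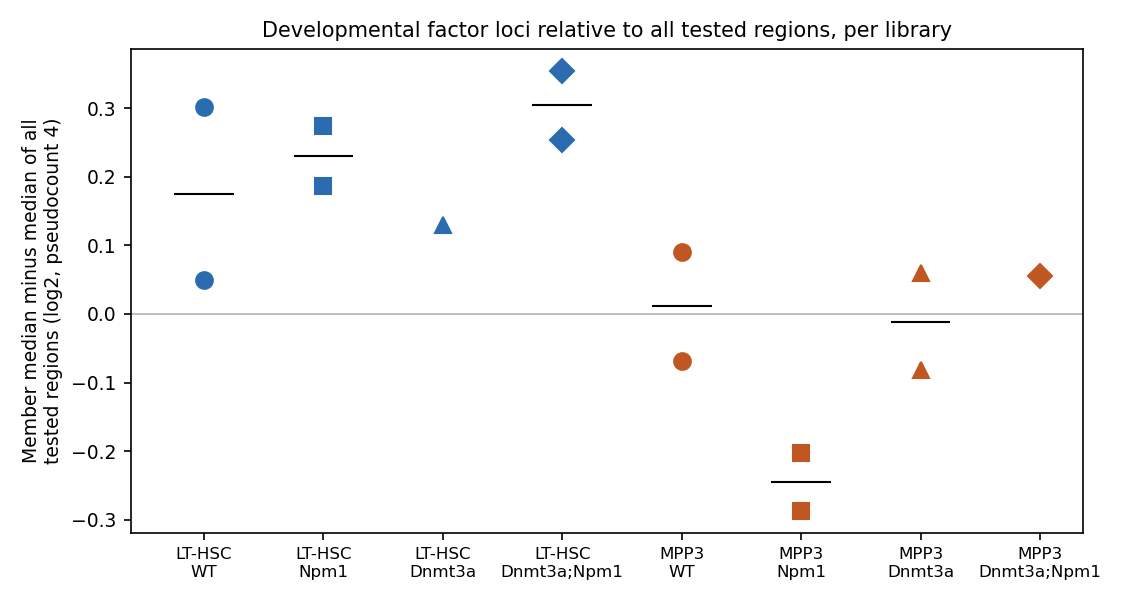
Median of the developmental factor regions minus median of all tested regions (y, log2 of normalized value + 4) in each of the 14 libraries, by cell type and genotype (x); points are libraries and horizontal lines the mean of groups with 2. All LT-HSC libraries are at 0.05 to 0.35 and the MPP3 libraries at -0.29 to 0.09, with both Npm1 MPP3 libraries lowest.

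All role groups had negative medians in this comparison. Counts at an unadjusted p under 0.05 in the following are to be read against 3.93% higher and 2.66% lower over all tested regions. Relative to all tested regions the shift was -0.17 for the 248 neural regions (2 higher and 10 lower, 0.806% and 4.03%), -0.24 for the 99 heart and mesoderm regions (0 and 9, the latter 9.09%), -0.36 for the 48 skeletal, craniofacial and limb regions (0 and 5, the latter 10.4%) and -0.40 for the 10 endoderm regions (0 and 0, with 0 of 10 above 0). Without enrichment these were -0.24, -0.24, -0.40 and -0.48. Start regions, known only for the genes with a promoter window, stood at -0.16. All other member regions, which can include start regions of the remaining genes, stood at -0.24.

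Gene by gene, the median over a gene's regions was negative for 45 of 53 genes, and that of its strongest region for 42 of 53. All tested regions were lower in MPP3 at Six3, a forebrain and eye factor (16 of 16, from -1.07 to -0.00), Tbx3 (10 of 10, from -1.29 to -0.00), Gata4 (7 of 7), Otx2 (7 of 7), Irx3, Sox1 and Foxa2 (6 of 6 each). Regions of 1 gene lie side by side and do not count as independent. Medians above 0 were found at Irx1 (0.56), Tlx3 (0.52), Isl1 (0.33), Wt1 (0.14), Emx2 (0.12), Otx1 (0.07), Irx2 (0.06) and En1 (0.02).

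At the Six3 start region, chr17:85620162-85622282, LT-HSC libraries read 172 and 202 in WT, 274 and 360.3 in Npm1, 172 in Dnmt3a, and 300.4 and 272 in Dnmt3a;Npm1. MPP3 libraries read 159 and 77.9 in WT, 103 and 86.1 in Npm1, 239 and 199.9 in Dnmt3a, and 143 in Dnmt3a;Npm1. The 2 Dnmt3a MPP3 libraries reached into the LT-HSC range and the other 5 did not. The fitted difference was -0.59 ± 0.22 (SE; limma's adjusted p = 0.634), and the MPP3 carrier difference was 0.40 ± 0.34.

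Only 1 member region separated all 7 MPP3 from all 7 LT-HSC libraries in normalized values (0 higher and 1 lower, against 0.119% and 0.216% of all tested regions). It lay across an end of the Tbx3 bounds (chr5:119670534-119684724), at chr5:119670210-119671327, and was picked out after its values were seen. Tbx3 had no promoter window, so the distance to its start was not measured. LT-HSC libraries read 240.2 and 199 in WT, 217 and 177 in Npm1, 163 in Dnmt3a, and 199.6 and 165 in Dnmt3a;Npm1. MPP3 libraries read 126 and 118 in WT, 114 and 91.0 in Npm1, 126 and 120.4 in Dnmt3a, and 157 in Dnmt3a;Npm1. The means were 122 ± 19.7 (SD, n = 7) in MPP3 and 194 ± 28.2 (SD, n = 7) in LT-HSC, and the fitted difference of -0.59 ± 0.24 (SE) had an adjusted p of 0.682 by limma. With the enrichment term subtracted, 0 regions separated as higher and 4 as lower (0.28% and 0.219% of all tested).

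The 3 lower regions of smallest p were at Pitx1, Msx1 and Gata6. At Pitx1, chr13:55828010-55829595, LT-HSC libraries read 102 and 135 in WT, 270.2 and 223 in Npm1, 118 in Dnmt3a, and 152 and 158 in Dnmt3a;Npm1. MPP3 libraries read 66.7 and 63.6 in WT, 82.0 and 74.3 in Npm1, 146 and 78.3 in Dnmt3a, and 67.9 in Dnmt3a;Npm1. Only 1 Dnmt3a MPP3 library reached the LT-HSC range, and the difference was -0.86 ± 0.28 (SE; limma's adjusted p = 0.514).

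At Msx1, a tooth and craniofacial factor (chr5:37816596-37817799, 6786 bp from the start), LT-HSC libraries read 51.6 and 72.1 in WT, 259.9 and 189 in Npm1, 86.3 in Dnmt3a, and 117 and 209 in Dnmt3a;Npm1. MPP3 libraries read 92.5 and 21.8 in WT, 53.6 and 17.3 in Npm1, 28.6 and 51.4 in Dnmt3a, and 54.8 in Dnmt3a;Npm1. All MPP3 libraries except 1 WT library lay at or below 54.8, and LT-HSC values began at 51.6. The difference was -1.09 ± 0.37 (SE; limma's adjusted p = 0.550).

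At Gata6, a heart and gut factor, the region (18:11051881-11053853) lay across an end of the gene bounds and overlapped the antisense gene Gata6os. It read 278 and 218 in WT, 571 and 369 in Npm1, 232 in Dnmt3a, and 266 and 324 in Dnmt3a;Npm1 LT-HSC. In MPP3 it read 193 and 192 in WT, 219.8 and 155 in Npm1, 142 and 345 in Dnmt3a, and 169 in Dnmt3a;Npm1. A Dnmt3a and an Npm1 MPP3 library lay above the lowest LT-HSC value. The difference was -0.69 ± 0.24 (SE; limma's adjusted p = 0.550).

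The 3 higher regions of smallest p were at Tlx3, Irx1 and Nkx2-2. A region 4568 bp from the Tlx3 start, chr11:33208156-33209030, differed by 1.00 ± 0.45 (SE; limma's adjusted p = 0.734), with LT-HSC values from 10.7 to 47.4 and MPP3 values from 19.6 to 95.4. Irx1, a lung, kidney and neural factor, had a fitted difference of 0.91 ± 0.42 (SE) at chr13:71954161-71955680, and 0.45 without enrichment (limma's adjusted p = 0.744 with it). There, 1 WT LT-HSC library read 5.06, the other LT-HSC libraries 40.8 to 154 and the MPP3 libraries 32.6 to 143. The means were close, at 84.7 in MPP3 and 80.3 in LT-HSC. Nkx2-2, a factor of ventral spinal cord and pancreas, differed by 0.48 ± 0.25 at chr2:147177668-147178565, with 90.8 to 123 in LT-HSC and 116 to 183 in MPP3.

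**Figure D5:**
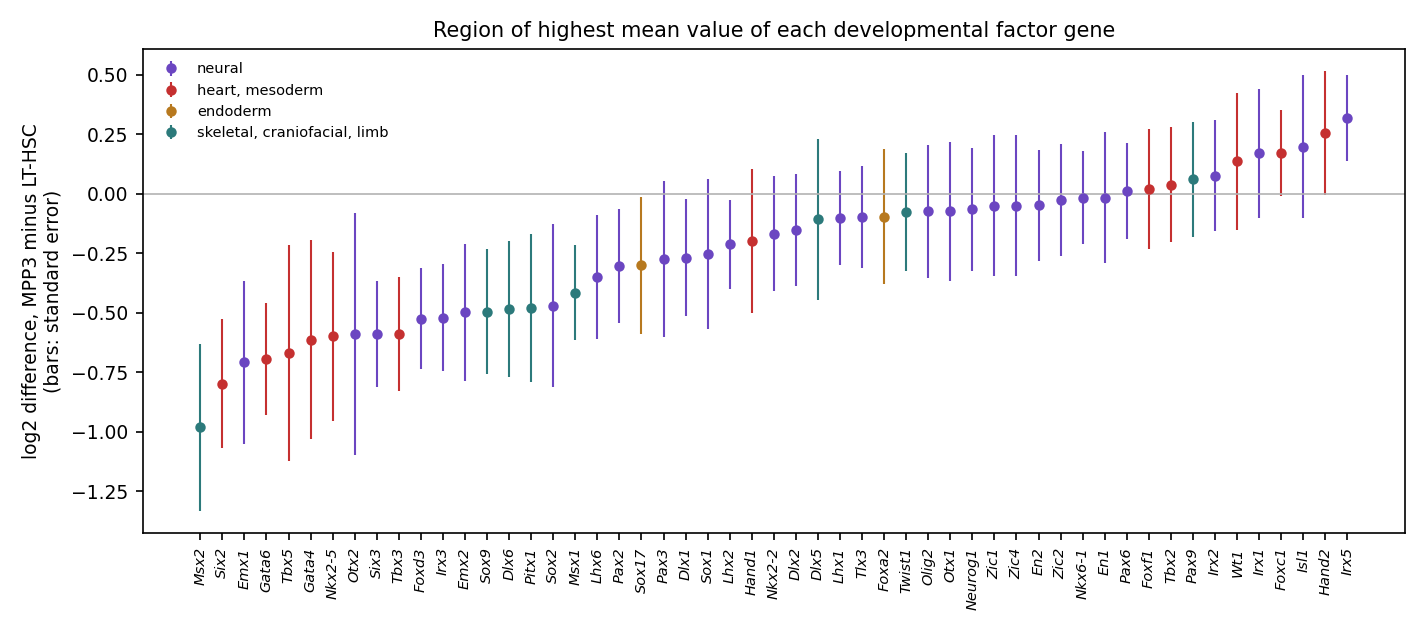
log2 difference of MPP3 from LT-HSC, with enrichment in the model, at the strongest region of each of the 53 genes (y; points with SE bars), ordered from lowest to highest (x) and coloured by role. The differences run from -0.98 at Msx2 to 0.32 at Irx5, 42 of 53 are below 0, and the roles are mixed along the order.

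The cell type shift was shared by other developmental factor loci and was not particular to the 53 genes. Over the 598 regions of the 89 other developmental factor genes the shift relative to all regions was -0.16 with enrichment and -0.19 without, with 1 region higher (0.167%) and 22 lower (3.68%) at an unadjusted p under 0.05. Blood transcription factor loci (780 regions of 31 genes) stood at -0.06 and -0.04, and housekeeping loci (153 regions of 23 genes) at 0.05 and 0.17. In the carrier comparisons, the other developmental factor loci stood at -0.07 in LT-HSC and 0.10 in MPP3 relative to all regions, next to -0.01 and 0.12 for the member loci, and none of their regions was called either.

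Marker genes of the sorted and of other blood cells differed in the same comparison. Regions at 11 of 12 neutrophil and monocyte genes (72 regions, among them Elane, Mpo and Ctsg) stood 0.43 higher in MPP3 relative to all regions, with 19 higher (26.4%) and 1 lower (1.39%) at an unadjusted p under 0.05, against 3.93% and 2.66% of all tested regions. Of the 2 regions called over the whole table (0.00149%), 1 was among them. Regions at 10 of 10 LT-HSC genes (155 regions, among them Procr, Hlf and Mecom) stood at -0.21, with 2 higher (1.29%) and 10 lower (6.45%). Regions at 9 of 10 erythroid and megakaryocyte genes (52 regions) stood at -0.33, lymphoid genes at 0.01, stroma genes at -0.04 and endothelial genes at -0.05. The library medians had a middle value of 42.0 in LT-HSC and 64.7 in MPP3 for neutrophil and monocyte regions, and 67.2 and 43.1 for erythroid and megakaryocyte regions. The 53 loci had 58.5 and 41.8 by the same measure. Ly6g among the neutrophil genes and Alas2 among the erythroid genes had no tested region. The part of other cell types in the difference at the developmental factor loci was not tested.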

How the data were processed

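ATAC-seq signal was analysed for 14 libraries in 8 groups, 6 of 2 libraries and 2 of 1. The deposited table holds whole-number signal values per region on build mm10 for 705361 regions. The submitters' processing notes name HOMER 4.10, DiffBind 2.12.0, R 3.6.0 and edgeR 3.26.4 with no role given, and the aligner, peak caller and read shift are not given in the sources used here. Low values of 6 libraries fall only on multiples of a step above 1, so the deposited signal of these had been scaled per library by the authors. No such step was found in the other 8 libraries. The table was not treated as raw counts. The scaling factors are not given in the sources used here, so no counting intervals are given. Total signal was 14683769 to 28748205 per library.

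Values were divided by trimmed mean of M values (TMM) factors computed over the 25129 regions of mean at least 100, and log2(value + 4) was fitted with limma 3.58.1 (R 4.3.3, trend and robust empirical Bayes) over the 134465 regions of mean at least 30 (19.1% of the table). The model had the 8 groups and the centred log2 enrichment, leaving 5 residual degrees of freedom, or 6 without enrichment. Carrier contrasts averaged the groups of each carrier state with equal weight. Tests were two-sided, and p-values were adjusted by Benjamini-Hochberg over all tested regions. The scripts were tested on simulated data.

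Member genes, comparison lists and marker lists were chosen with earlier results of these data known. Regions were named by this rule: every member region called in a Dnmt3a comparison (there was none), the 4 higher and 4 lower of smallest p in each carrier comparison, the 4 of highest mean, and the 3 higher and 3 lower of smallest p between cell types, with 1 region per gene in each list. Start regions of genes with a printed promoter and of Six3 were added to these after their values were seen. Alternatives covered the scaling, the enrichment term, the added constant, the mean filter, the grouping, a replicate block, each library left out and the definition of member regions. Another 2 (total signal or cyclic loess scaling, each without enrichment) were added after seeing the data. Promoter sequences are RefSeq's (GRCm38.p6).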

Additional observations from a re-analysis of the deposited data

How the results depend on the processing

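No developmental factor region was called in any of the 4 comparisons (LT-HSC carriers, MPP3 carriers, their difference, and MPP3 against LT-HSC) under any alternative run. Over all tested regions at most 1 was called in any run of the first 3 comparisons. For MPP3 against LT-HSC it was at most 839 of 134465, with 4 groups by carrier status. With so few calls over all regions, the lack of calls among the members says little about them. Under the scaling to strong regions, median log2 differences depended on the enrichment term. Without it they were -0.4148, 0.4224, 0.8652 and -0.4162 in the order of the comparisons above. With the replicate block and no enrichment term they were -0.3575, 0.4604, 0.8652 and -0.4162. Other scalings without the term gave values nearer to those of the main model. Total signal gave 0.035, 0.0556, 0.0363 and -0.2208, and cyclic loess -0.0618, 0.1308, 0.1692 and -0.2427. The block with the enrichment term gave -0.0128, 0.1019, 0.1622 and -0.2345. Over 15 pairs of groups the A minus B differences correlated at -0.24 to 0.33, highest between WT and Npm1 MPP3. They were not adjusted for enrichment, which also differed between A and B, so they cannot settle whether the letters pair libraries. With one library left out, the LT-HSC carrier median ranged from -0.105 to 0.1032, that of MPP3 carriers from 0.031 to 0.2239, their difference from -0.095 to 0.3935, and MPP3 against LT-HSC from -0.3255 to -0.1297. Each of these extremes was reached without LT-HSC WT replicate A or without MPP3 WT replicate A. The lowest LT-HSC carrier median was the same without MPP3 WT replicate B. Likewise, the lowest MPP3 carrier median was the same without LT-HSC WT replicate B. The cause was not tested. Member regions at an unadjusted p under 0.05 numbered 3 to 30, 2 to 22, 3 to 12 and 12 to 46 with one library left out, highest without LT-HSC Dnmt3a;Npm1 replicate A, MPP3 Dnmt3a;Npm1 replicate B, MPP3 WT replicate A and MPP3 Dnmt3a replicate A in that order. Among member regions of mean at least 100, MPP3 against LT-HSC was -0.1308. It stayed below 0 under every alternative, between -0.2742 and -0.138 relative to all regions over the settings that kept all libraries. Of 26 values at named regions, 3 changed sign under at least 1 setting, at Wt1 (LT-HSC carriers, down to -0.08), and at the Foxc1 and Tlx3 start regions (MPP3 against LT-HSC). Groups of 1 or 2 libraries and intervals wider than most differences limit all of these results.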
